A study of Mus musculus with 6 samples.

Results

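The 10 mouse liver genes described here are Btnl9, Gtdc1, Ctcflos, 3930402G23Rik, Gm15459, Gm4366, Gm32687, Gm3055, Olfr56 and Nfyb. They were picked by name, because earlier results of these data showed a sharp and even separation between livers lacking LKB1 and wild type (WT) livers in every animal, and because none is an enzyme of liver fuel metabolism. Their levels in the 2 groups therefore chose them, and these levels are given as a description with no test. All 10 were found among the 55450 genes of the count table, and all 10 were among the 14539 genes that passed the filter on low counts. A gene that passed only through the group where it is high had to differ, so passing the filter supports nothing.

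Polyadenylated RNA of 6 livers, 3 per group with 1 library per mouse, was sequenced with paired reads of 76 nt. The knockout mice were LKB1 fl/fl, that is with LKB1 alleles flanked by loxP sites (the gene's symbol is Stk11), and the WT mice had normal alleles. Both groups are labelled with the strain C57BL/J, both received AAV8 Cre, an adeno-associated virus carrying the Cre recombinase that cuts out DNA between loxP sites, at 6 weeks of age, and both were killed 4 weeks later, at 10 weeks. The promoter driving Cre and the strain in which the floxed allele was made are not given in the sources used here. Any sequence difference that came with the floxed line goes with the knockout group, so it and the loss of LKB1 cannot be told apart by these 2 groups. Nothing in the labels names littermates. The p-values set the difference between groups against the spread of these 6 animals within their groups.

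They include processed pseudogenes, zinc finger cluster genes, an olfactory receptor gene, a transcription factor subunit and long RNAs. Processed pseudogenes are copies of a spliced mRNA pasted back into the genome, usually at a distance from the parent gene, and reads from a parent and a young copy can be hard to tell apart. Zinc finger genes of the C2H2 type sit in large clusters of repeated, nearly identical members, and olfactory receptor genes form the largest gene family of the mouse. NF-Y is a transcription factor of 3 subunits, of which Nfyb encodes one. It binds the sequence CCAAT in the promoters of many genes, including those of cholesterol synthesis, the cell cycle and protein folding. Antisense and intergenic long RNAs have no coding role, and most have no known function.

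Libraries held 47659122 to 56147667 counts, so that 3 counts, used here as the floor for a gene at 0, correspond to 0.0515 to 0.0641 CPM (counts scaled to a common library size by the TMM method). Stk11 itself had 22.1, 14.4 and 11.4 CPM in knockout replicates 1 to 3 and 66.1, 64.2 and 69.7 CPM in WT replicates 1 to 3. The knockout libraries were all lower, by 2.06 ± 0.247 on the log2 scale (standard error, SE; edgeR quasi-likelihood test, adjusted p = 0.0167). In whole tissue, fewer cells with a transcript and less of it per cell cannot be told apart. Across all genes, 490 of 14539 (3.37%) were called at an adjusted p under 0.05, 313 (2.15%) higher and 177 (1.22%) lower in knockout. Scaling by library size alone gave 380 higher and 131 lower. The groups did not overlap in 32.4% of genes tested. Of 8 hepatocyte markers, 7 were found, none of them at 0 in all libraries, and their summed levels ran from 20200 to 70400 CPM in the knockout and from 88000 to 124000 CPM in the WT livers. Replicate 1 of each group had Xist counts (42472 and 29243) and the other 4 libraries had Y-linked counts (6146 to 8199), so the groups were alike in this respect.

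The 4 genes whose counts depend most on a near-identical copy are shown first by sequence, because the letters that set each apart from its copy are few. Gm15459 (build GRCm38, chr5:5781615-5783555, minus strand) is a processed pseudogene of Hspa8, which encodes the constitutive cytosolic chaperone HSC70. Over its whole length of 1941 nt it differs from the Hspa8 transcript at 5 positions, A114G, T414C, T549C, A1222G and T1440C, where the base of Gm15459 comes first, positions count from 1 at its 5′ end and the base of Hspa8 comes last. All 5 lie in the part that is coding in Hspa8. The windows around 2 of them are printed 5′ to 3′ with the differing base in capitals, at chr5:5783422-5783462 and chr5:5782987-5783027 for Gm15459.
Gm15459, position 114: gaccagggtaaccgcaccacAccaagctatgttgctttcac
Hspa8, same window: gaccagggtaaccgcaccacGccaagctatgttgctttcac
Gm15459, position 549: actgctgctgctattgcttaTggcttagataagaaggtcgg
Hspa8, same window: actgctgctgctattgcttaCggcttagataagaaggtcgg

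Gm4366 (chr7:116824510-116825851, minus strand) is a processed pseudogene of Eef1g, which encodes the gamma subunit of a translation elongation factor. It differs from the Eef1g transcript at 5 of 1342 positions, A274G, T704C, T740C, T787G and A1249G, all in the part that is coding in Eef1g. The windows around 2 of them lie at chr7:116825128-116825168 and chr7:116825045-116825085, with the differing base in capitals.
Gm4366, position 704: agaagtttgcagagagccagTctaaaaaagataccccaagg
Eef1g, same window: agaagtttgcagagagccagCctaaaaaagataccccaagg
Gm4366, position 787: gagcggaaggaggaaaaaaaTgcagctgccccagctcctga
Eef1g, same window: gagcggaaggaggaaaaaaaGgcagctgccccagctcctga

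Gm32687 (chr10:81863934-81881081, plus strand) encodes a predicted protein of 600 residues with 17 C2H2 zinc finger patterns, and Zfp433 on the same chromosome encodes one of equal length with the same number. The 2 transcripts differ at 3 of 2379 positions, A392G, A683G and T1349C, counted from the 5′ end of the Gm32687 transcript. The windows around 2 of them show how little separates the pair.
Gm32687, position 392: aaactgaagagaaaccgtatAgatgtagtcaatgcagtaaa
Zfp433, same window: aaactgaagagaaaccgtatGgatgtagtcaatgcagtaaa
Gm32687, position 1349: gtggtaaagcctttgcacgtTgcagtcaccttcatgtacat
Zfp433, same window: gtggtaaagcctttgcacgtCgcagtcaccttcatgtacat

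Gm3055 (chr10:81742821-81771161, minus strand) matches Zfp781 of the same zinc finger cluster at all but 4 of 4067 positions (C1397T, A1812T, T3777G and T3908A), all outside the coding part. Its predicted protein of 243 residues holds 0 C2H2 patterns, as does that of Zfp781. A read can be placed where it or its mate covers a differing base. The share of single 76-nt stretches found in full in another gene, which does not count the mate, was 97.4% for Gm15459 (79.6% with Hspa8 itself), 75.5% for Gm4366, 90.1% for Gm32687 and 90% for Gm3055. It was 8.81% for Gtdc1, where most came from a pseudogene inside its own span, 1.93% for Ctcflos, 0.792% for Olfr56 and 0% for Btnl9, 3930402G23Rik and Nfyb. The deposited counts carried the same division: non-whole values, which arise when a read is split between genes, were found in 6 of 6 libraries for Gm15459 and Gm4366, 3 for Gm32687, 4 for Gm3055, 1 for Olfr56 and 0 for the other 5 genes. For Gm32687 and Gm3055 the whole values were all 0 counts in knockout libraries, so every value above 0 was non-whole. Which base the reads carried at the differing positions was not analysed here.

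Both pseudogenes were high in knockout. Gm15459 had 481, 617 and 453 CPM in knockout replicates 1 to 3, and 19, 18.1 and 16 CPM in WT. Every knockout library was far above every WT library, and the mean was 29.2-fold higher (517 ± 87.6 against 17.7 ± 1.54 CPM, SD, n = 3 each). Gm4366 had 41.9, 51.1 and 44.2 CPM in knockout and 3.45, 3.7 and 4.31 CPM in WT. It was 12-fold higher in knockout, again with no overlap.

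The parent genes had lower estimates in knockout, and the sums of parent and copy overlapped between the groups. Hspa8 had 598, 785 and 567 CPM in knockout and 1250, 1040 and 968 CPM in WT, a difference of −0.74 ± 0.212 on the log2 scale (edgeR, adjusted p = 0.0923). All 3 knockout libraries lay below the WT libraries without passing the threshold. Gm15459 and Hspa8 together came to 1080, 1400 and 1020 CPM in knockout and 1270, 1060 and 984 CPM in WT, so the groups overlapped and the means differed by 0.08 on the log2 scale. Of the reads given to either gene, Gm15459 took 44.6%, 44% and 44.4% in the knockout libraries and 1.5%, 1.71% and 1.63% in the WT libraries. The exact 95% binomial intervals of these shares were under 1 percentage point wide and cover counting error only. The share was nearly the same in the 3 animals of a group, while the summed level differed more between them.

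Gm4366 followed the same pattern with its parent. Eef1g had 113, 124 and 126 CPM in knockout and 146, 160 and 165 CPM in WT (−0.37 ± 0.13 on the log2 scale, edgeR adjusted p = 0.135). The sum of both was 155, 175 and 171 CPM in knockout and 150, 164 and 169 CPM in WT. These sums overlapped, with means of 167 ± 10.5 and 161 ± 10 CPM. The pseudogene took 27%, 29.1% and 25.9% of the pair's reads in knockout and 2.3%, 2.26% and 2.55% in WT. Among the other copies of Hspa8 that match Gm15459 over its full length, Gm8355, a processed pseudogene on chromosome 10, also passed the threshold: it had 5.07 ± 1.62 CPM in knockout and 1.44 ± 0.397 CPM in WT (log2 fold change 1.82, edgeR adjusted p = 0.0418).

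For Gm32687 and Gm3055, of the zinc finger cluster, the sums did not overlap. Gm32687 had 0 counts in all 3 knockout libraries and 2.32, 3.5 and 2.72 CPM in WT. Against a floor of 3 counts per library it was at least 50.5-fold lower in knockout. Zfp433, its copy, had 2.52, 1.69 and 2.36 CPM in knockout and 3.32, 2.71 and 2.88 CPM in WT (−0.44 on the log2 scale, edgeR adjusted p = 0.287). Together they came to 2.52, 1.69 and 2.36 CPM in knockout and 5.64, 6.21 and 5.6 CPM in WT, which is 2.66-fold lower with no overlap. In WT, Gm32687 held 41.1%, 56.4% and 48.6% of the pair's reads. In knockout it held 0% of 147, 94 and 111 reads, with upper exact 95% limits of 2.48%, 3.85% and 3.27%. These limits cover counting error only, and the reads are those the authors' estimate gave to each gene, since 90.1% of single stretches fit both.

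Gm3055 had 0, 3.52 and 0 expected counts in knockout and 60.71, 73.19 and 86.8 in WT, the latter equal to 1.2, 1.41 and 1.86 CPM. With counts pooled over the livers of a group and rounded, WT held 59.5 times the knockout counts per unit of depth (95% counting interval 22.9 to 220). This interval covers counting error only, not the spread between animals or the division of reads between copies. Zfp781 had 1.03, 0.811 and 0.382 CPM in knockout and 1.08, 0.532 and 0 CPM in WT, with groups that overlapped (edgeR adjusted p = 0.816). The division between the copies was uneven even within WT, where Gm3055 took 52.5%, 72.6% and 100% of the pair's reads. Their sum was 1.03, 0.874 and 0.382 CPM in knockout and 2.28, 1.94 and 1.86 CPM in WT, without overlap and 2.66-fold lower in knockout. With every gene that matches Gm3055 over more than 50% of its length added, the sum was 1.92-fold lower.

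**Figure D1:**
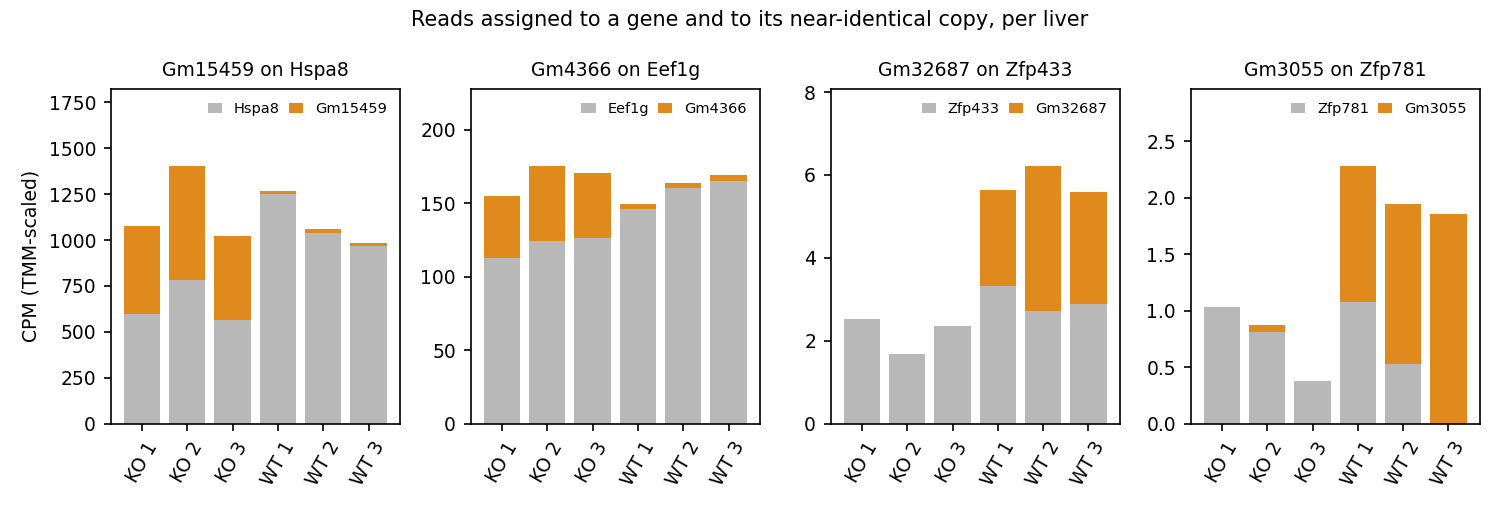
Stacked bars of the level (CPM, linear axis from 0) given to each gene (orange) and to its near-identical copy (grey) in each of the 6 livers, 1 panel per pair. For Gm15459 and Gm4366 the orange part is large only in knockout while the full bars overlap between groups; for Gm32687 and Gm3055 the full bars are lower in all 3 knockout livers.

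Btnl9 (chr11:49165585-49187159, minus strand) encodes a butyrophilin-like protein of the immunoglobulin superfamily and is known as a transcript of endothelial cells. It had 2, 0 and 2 counts in knockout and 445, 266 and 278 in WT, or 8.77, 5.13 and 5.94 CPM. It was near absent from every knockout liver. The ratio of counts per unit of depth, pooled over the livers of a group, was 266, with a 95% counting interval of 104 to 980. That interval covers counting error only, not the spread between animals. Of 8 butyrophilin genes listed, no other passed the filter on low counts, so its family gives no comparison. Summed over 14 liver endothelial markers, the level ran from 192 to 314 CPM in the knockout livers and from 361 to 495 CPM in the WT livers. All 14 markers had a lower estimate in knockout and 0 were called, none was at 0 in all libraries, and their part in the value of Btnl9 was not tested. Lower estimates were not particular to endothelial markers. They were found in 8 of 8 stellate, 7 of 8 lymphocyte, 6 of 7 hepatocyte, 5 of 8 macrophage and 3 of 6 cholangiocyte markers.

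Olfr56 (chr11:48978889-49135387, plus strand) is annotated as an olfactory receptor gene, and its span lies next to that of Btnl9. It had 0 counts in the 3 knockout libraries and 16, 16 and 10.06 in WT, which is 0.315, 0.309 and 0.215 CPM. Against the floor it was at least 4.96-fold lower in knockout, a weak limit because the WT level is low. Of 1407 olfactory receptor genes in the table, 50 had any count and 10 reached 0.1 CPM in a library, and of the 3 others tested 0 were called (edgeR, 2 at an unadjusted p under 0.05, which 3817 of all 14539 genes, 26.3%, also had). The span of Olfr56 contains Ifi47, Tgtp1 and Tgtp2, genes of the interferon-inducible GTPase family. Ifi47, on the same strand, had 23.9, 49.6 and 45.1 CPM in knockout and 34.2, 25.2 and 37 CPM in WT, overlapping between groups (adjusted p = 0.541). Tgtp2 was estimated 3.36 ± 0.748 log2 units higher in knockout (adjusted p = 0.0599), with 17.4, 131 and 48.1 CPM in the 3 knockout libraries, and Tgtp1 2.83 ± 0.785 higher (adjusted p = 0.0877). Of 15 interferon genes listed, 0 were called by edgeR, 10 (66.7%) had an unadjusted p under 0.05, beside 26.3% of all genes, and the median log2 fold change was 1.66, beside 0.01 over all genes tested. Olfr56 thus lay among genes with higher estimates in knockout while it was itself listed at 0 there. Whether counting used strand is not stated.

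Gtdc1 (chr2:44564412-44927657, minus strand) encodes a glycosyltransferase that adds mannose to queuosine, a modified base of some transfer RNAs. It had 32.2, 48.1 and 41 CPM in knockout and 5.26, 5.01 and 5.56 CPM in WT. Knockout libraries were above WT libraries without exception, 7.66-fold on average, and the WT values lay within a narrow range. The other 3 genes listed for queuosine were not called: Qtrt1, Qtrt2 and B3gntl1 had log2 fold changes from −0.51 to 0.68 (edgeR, 1 at an unadjusted p under 0.05). The 3 tested genes within 0.5 Mb of Gtdc1 had log2 fold changes from −0.65 to −0.06, with 0 called and 0 at an unadjusted p under 0.05. None of these neighbours had a positive estimate.

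Ctcflos (chr2:173110818-173133204, plus strand) is transcribed antisense to Ctcfl, the germ-cell paralog of the chromatin organiser CTCF. It had 24, 23.8 and 21.9 CPM in knockout and 2.86, 2.68 and 3.98 CPM in WT. The 3 knockout values were close together, and the mean was 7.33-fold higher. Ctcfl, which overlaps it, had 1.15, 1.39 and 2.06 CPM in knockout and 0.394, 0.251 and 0.47 CPM in WT, a rise of 2.04 ± 0.389 on the log2 scale (edgeR, adjusted p = 0.0451). Strand use is not stated, so reads of the 1.93% of Ctcflos stretches that also lie in Ctcfl could belong to either. Of 9 other genes listed for CTCF and cohesin, Ctcfl alone was called, and 2 (22.2%) had an unadjusted p under 0.05 (edgeR), beside 26.3% of all genes. Pck1, the gluconeogenic enzyme gene that starts 19.8 kb beyond Ctcflos, had 3530, 3370 and 5960 CPM in knockout and 2470, 2110 and 1920 CPM in WT, and its estimate of 0.98 ± 0.295 did not pass the threshold (adjusted p = 0.101).

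3930402G23Rik (chr8:10924427-10928696, minus strand) is an intergenic long RNA with no known role. It had 18.8, 21.9 and 15.6 CPM in knockout and 0.591, 0.328 and 0.47 CPM in WT, a 40.5-fold difference of means with no overlap. A second long RNA, Gm32540, lies 58.2 kb away and rose from 2.59 ± 0.63 to 10.2 ± 3 CPM (log2 fold change 1.97 ± 0.284, edgeR adjusted p = 0.0255). Irs2, the insulin receptor substrate gene 56 kb on the other side, had 81.1, 94.6 and 77.4 CPM in knockout and 57.3, 28.6 and 35.2 CPM in WT, with an estimate of 1.06 ± 0.262 (adjusted p = 0.0712). Of all 8 neighbours tested within 0.5 Mb, 4 had higher and 4 lower estimates, with a median of −0.05, and Gm32540 alone was called. The 4 nearest, 20.5 to 42 kb away, had estimates from −0.62 to 0.4.

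The promoters of 3 genes that have no near-identical copy are printed because a CCAAT, the letters that NF-Y binds, was found in each. These are 250 bases before to 50 bases after the annotated start, from RefSeq on GRCm38.p6, at chr11:49187040-49187339 (minus) for Btnl9, chr2:173124499-173124798 (plus) for Ctcflos and chr8:10928408-10928707 (minus) for 3930402G23Rik. The RefSeq start need not be the start of the span given above. For Ctcflos the window lies inside that span, past the end of Ctcfl. Capitals mark CCAAT or its reverse complement ATTGG and, in Btnl9, TGACG, the shared part of the site bound by CREB.
Btnl9: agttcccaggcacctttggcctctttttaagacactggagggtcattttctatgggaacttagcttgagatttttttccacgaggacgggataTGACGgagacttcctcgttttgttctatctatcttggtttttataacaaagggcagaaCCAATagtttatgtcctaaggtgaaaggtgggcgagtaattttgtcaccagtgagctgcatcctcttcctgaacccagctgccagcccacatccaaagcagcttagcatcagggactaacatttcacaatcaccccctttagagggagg
Ctcflos: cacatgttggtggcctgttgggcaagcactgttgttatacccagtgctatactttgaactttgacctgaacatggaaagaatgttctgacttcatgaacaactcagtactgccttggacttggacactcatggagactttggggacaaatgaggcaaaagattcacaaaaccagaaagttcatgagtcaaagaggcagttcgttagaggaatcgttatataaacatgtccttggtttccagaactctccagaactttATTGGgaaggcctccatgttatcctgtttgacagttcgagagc
3930402G23Rik: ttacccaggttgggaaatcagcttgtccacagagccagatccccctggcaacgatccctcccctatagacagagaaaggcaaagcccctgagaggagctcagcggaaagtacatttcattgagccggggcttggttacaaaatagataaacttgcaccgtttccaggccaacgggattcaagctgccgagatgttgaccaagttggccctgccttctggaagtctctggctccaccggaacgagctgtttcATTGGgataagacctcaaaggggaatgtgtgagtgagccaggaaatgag

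A promoter entry was found for 8 of the 10 genes, Gtdc1 with 3 and the others with 1. That of Olfr56 (chr11:49133923-49134222) lies inside the span given above, past Ifi47, Tgtp1 and Tgtp2, and not at the start of the span. On both strands, CCAAT was found for 6 of these 8 (Btnl9, Ctcflos, 3930402G23Rik, Gm3055, Olfr56 and 1 entry of Gtdc1), and not in the windows of Gm32687 and Nfyb. It occurs in 37.4% of 32851 promoter windows of the same length, so a match is frequent everywhere. TGACG, found for Btnl9 and in 1 entry of Gtdc1, occurs in 20.8%, and the full palindrome TGACGTCA, which contains it, occurs in 1.79% and in no window of these genes. A gene that was lower in knockout (Btnl9) and genes that were higher (Ctcflos, 3930402G23Rik) both had a CCAAT. A match is only a stretch of letters.

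Nfyb (chr10:82748701-82764144, minus strand) had 14.7, 12.7 and 14.7 CPM in knockout and 45.5, 33.6 and 31.6 CPM in WT. All knockout libraries were below all WT libraries, 2.64-fold on average (14 ± 1.16 against 36.9 ± 7.48 CPM). The other subunits, without which NF-Y does not bind DNA, were not called. Nfya had 8.58 ± 0.774 CPM in knockout and 7.87 ± 1.41 CPM in WT (adjusted p = 0.68), and Nfyc 22.7 ± 2.29 and 17.2 ± 0.393 CPM (log2 fold change 0.40 ± 0.117, edgeR adjusted p = 0.0943). Nfyb was lower in knockout, and both partners had estimates above 0.

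Of genes that NF-Y is known to bind, some were called, beside 3.37% of all genes tested (1.22% lower in knockout). Among 8 sterol synthesis targets 4 fell, with log2 fold changes of −1.94 for Hmgcs1, −1.73 for Sqle, −2.45 for Cyp51 and −1.59 for Idi1 (edgeR adjusted p = 0.0431, 0.0226, 0.0285 and 0.0331). These are shared with the sterol regulator SREBP, and the median of the list was −1.66, beside 0.01 over all genes tested. In this list 7 of 8 genes (87.5%) had an unadjusted p under 0.05 (edgeR), beside 26.3% of all genes. Of 7 targets of endoplasmic reticulum stress, Herpud1 and Xbp1 fell, with log2 fold changes of −1.22 and −1.08 (edgeR adjusted p = 0.0226 and 0.0261). The list median was −0.29, and 4 of the 7 (57.1%) had an unadjusted p under 0.05 (edgeR). Directions were mixed. Estimates were above 0 in 3 of the 7, among them Ddit3 (log2 fold change 1.49, edgeR unadjusted p = 0.0297). Of 7 cell cycle targets, 0 were called by edgeR and 1 (Cdk1, 14.3%) had an unadjusted p under 0.05, with a median of 1.63. All 7 were highest in knockout replicate 1 of the 6 libraries (Ccnb1 at 5.26 CPM there, against 0.198 and 0.0212 CPM in replicates 2 and 3). The lists were chosen with earlier results known and give no independent evidence. Across all lists 7 of 54 genes were called, beside 490 of 14539 (3.37%) over all genes. Without knockout replicate 1 the count was 31 of 55, beside 30.2% of all genes. Without WT replicate 1 it was 1 of 55, beside 1.75% of all genes. Without any one of the other 4 libraries it was 0, beside 6 to 86 over all genes.

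**Figure D2:**
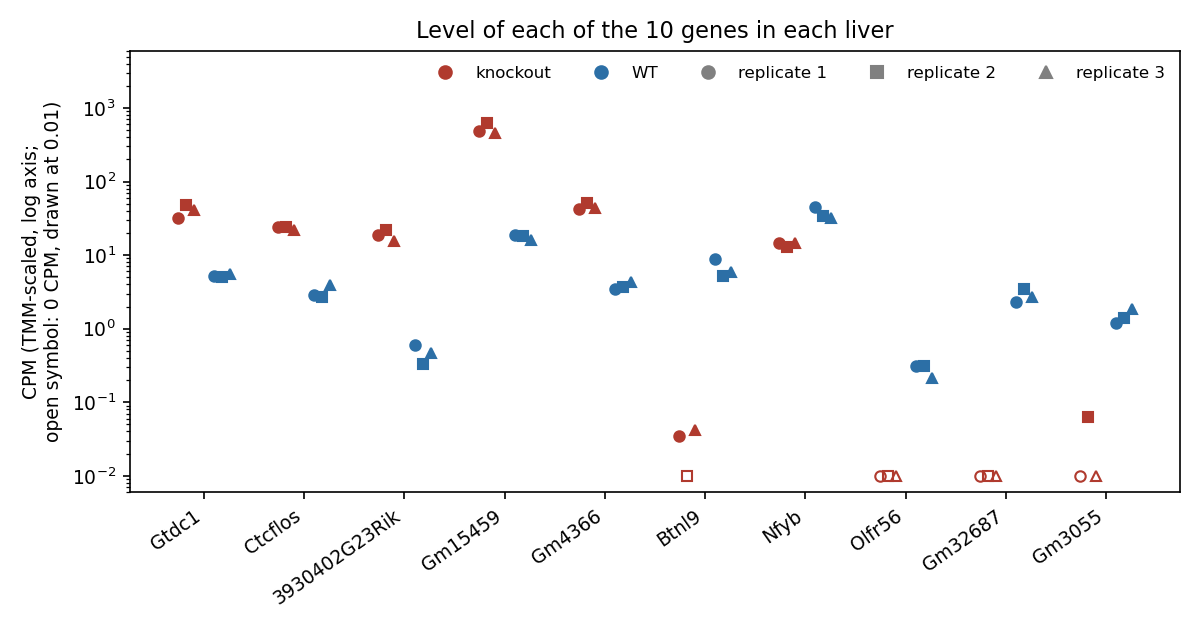
Level of each of the 10 genes in each liver (CPM, log axis), knockout in red and WT in blue, with a symbol shape per replicate; open symbols are 0 CPM, drawn at 0.01. In 5 genes all 3 knockout livers lie above the WT livers and in the other 5 they lie below, as the choice of the genes set.

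Of the 10 genes, 3 lie close to Stk11 on chromosome 10. Gm3055 is 1.61 Mb, Gm32687 1.73 Mb and Nfyb 2.62 Mb from it, all on the same side, and all 3 were lower in knockout. The 7 others are on chromosomes 2, 5, 7, 8 and 11. Position was not used to choose them. Leaving the 10 genes and Stk11 out, 0 of 120 genes tested within 2 Mb of Stk11 were called, 4 of 67 (5.97%) between 2 and 5 Mb and 2 of 45 (4.44%) between 5 and 10 Mb. Within 10 Mb that makes 6 of 232 (2.59%), beside 456 of 13815 (3.3%) on other chromosomes, so that the share of calls around Stk11 was near the background. The share of genes whose groups did not overlap was 32.8% within 10 Mb, beside 32.2% on other chromosomes. By distance it was uneven, with 26.7% under 2 Mb, 46.3% from 2 to 5 Mb, 28.9% from 5 to 10 Mb and 44.4% from 10 to 20 Mb. Without knockout replicate 1 the count of calls within 10 Mb was 72 of 233, beside 4473 of 14833 (30.2%) over all genes. Without WT replicate 1 it was 1 of 237, beside 262 of 14935 (1.75%) over all genes. Without any one of the other 4 libraries it was 0, beside 6 to 86 over all genes. Besides Tdg, the called genes in that range included Ftcd, an enzyme of histidine breakdown, Gucd1, Specc1l and 1810014B01Rik, with log2 fold changes of 1.38, −0.64, −0.58 and 1.78.

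**Figure D3:**
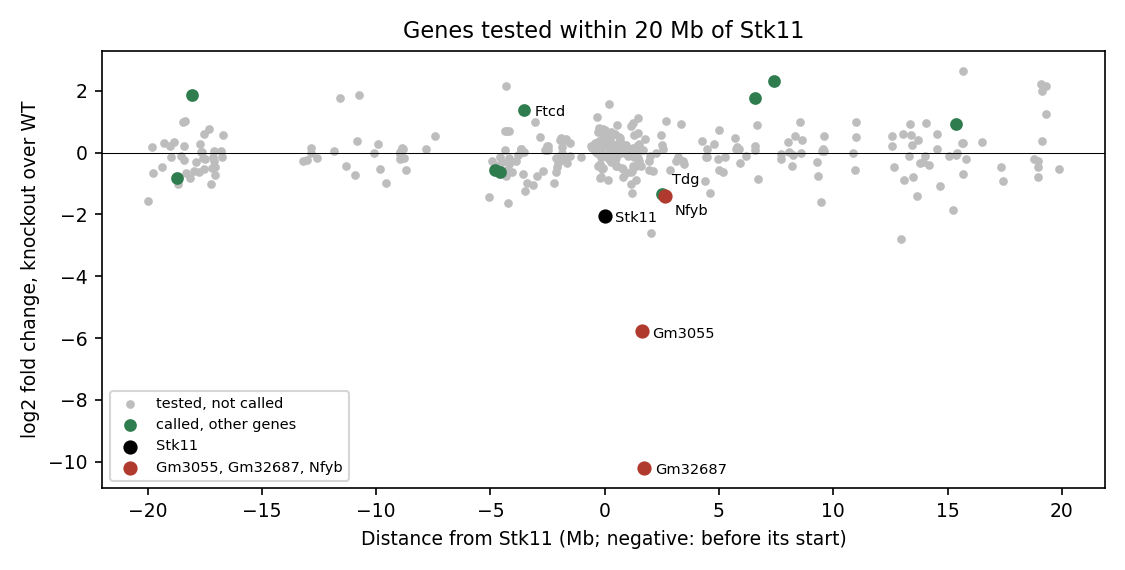
Log2 fold change (knockout over WT) of each gene tested within 20 Mb of Stk11 against its distance from Stk11 in Mb. Gm3055, Gm32687 and Nfyb (red) lie 1.61 to 2.62 Mb after Stk11 and below 0 among neighbours that were mostly not called; the plotted value of Gm32687, which had 0 counts in knockout, depends on the prior count of the fit.

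Nfyb has a called neighbour in Tdg, which encodes thymine DNA glycosylase, a base excision repair enzyme. Tdg had 5.54, 9.28 and 7.8 CPM in knockout and 16, 20.7 and 20.5 CPM in WT, and it fell by 1.34 on the log2 scale (edgeR adjusted p = 0.0325). It has near-identical processed pseudogenes of its own, which were looked up after its values were seen. Tdg-ps on chromosome 15 matches it at 98.69% over 2968 nt and had 2.24, 3.85 and 3.71 CPM in knockout and 0, 0 and 0.0507 CPM in WT (edgeR adjusted p = 0.00968). Gm9855 on chromosome 10 matches at 99.25% over 1194 nt and had 4.62, 7.63 and 6.89 CPM in knockout and 0.0745, 0.0773 and 0 CPM in WT (adjusted p = 0.00667). Tdg and its 5 copies together came to 12.6, 20.8 and 18.4 CPM in knockout and 16.3, 20.8 and 20.8 CPM in WT. These sums overlapped. The 5 copies include Gm9855, matched over 1194 of 3502 nt, and Glt8d2, a protein-coding gene matched over 367 nt. Tdg with Tdg-ps alone came to 7.78, 13.1 and 11.5 CPM in knockout and 16, 20.7 and 20.6 CPM in WT, without overlap. The sums of Gm15459 with Hspa8 alone and of Gm4366 with Eef1g alone did overlap. Nfyb itself shared 0% of its 76-nt stretches with other genes.

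Over all 10 genes, 3 of 89 neighbours tested within 0.5 Mb were called (3.37%, as over all genes): Ctcfl, Gm32540 and Tdg, 1 each beside Ctcflos, 3930402G23Rik and Nfyb. The groups did not overlap in 26 of the 89 (29.2%, beside 32.4% of all genes), and 24 (27%) had an unadjusted p under 0.05, beside 26.3% of all genes. Around Btnl9 and Olfr56 0 of 19 and 0 of 17 were called by edgeR (6 in each at an unadjusted p under 0.05), around Gm15459 and Gm4366 0 of 5 each (0 and 2), and around Gm32687 and Gm3055 0 of 26 and 0 of 33 (3 and 7). So no tested gene beside Btnl9, Olfr56, the pseudogenes or the zinc finger genes passed this threshold. Without knockout replicate 1 the count of called neighbours was 36 of 91, beside 4473 of 14833 (30.2%) over all genes. Without WT replicate 1 it was 2 of 93, beside 262 of 14935 (1.75%) over all genes. Without any one of the other 4 libraries it was 0, beside 6 to 86 over all genes.

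The separation that chose these genes can be put on 1 scale, the gap between the groups in log2 CPM divided by the larger range within a group. A ratio of at least 2 was reached by 219 of 14539 genes (1.51%), and all 10 genes had one because they were chosen for it. The ratios were 10.28 for Gm15459, 10.18 for Gm4366, 9.91 for Gm32687, 5.93 for 3930402G23Rik, 5.61 for Btnl9, 5.55 for Olfr56, 4.38 for Gtdc1, 4.36 for Ctcflos, 2.3 for Gm3055 and 2.11 for Nfyb. The 2 pseudogenes and Gm32687 ranked 3 to 5 of all genes tested and Nfyb ranked 198. The genes most like them by this ratio, at a mean level of at least 1 CPM, were Gm379 (8.79), Cacnb4 (6.91), Gm9008 (6.84), Trabd (6.18), Phf2 (6.17), Flt3l (5.82), Fuk (5.67), Oat (5.67), 2310015A10Rik (5.58) and Atox1 (5.45), over 6 libraries. Oat, the ornithine aminotransferase, had the highest level of these in knockout, with 3830, 3570 and 4980 CPM against 538, 537 and 482 CPM in WT. In Phf2, 16.9, 16.4 and 16.3 CPM stood against 22.8, 23.1 and 22.2 CPM, so a high ratio does not need a large fold.

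**Figure D4:**
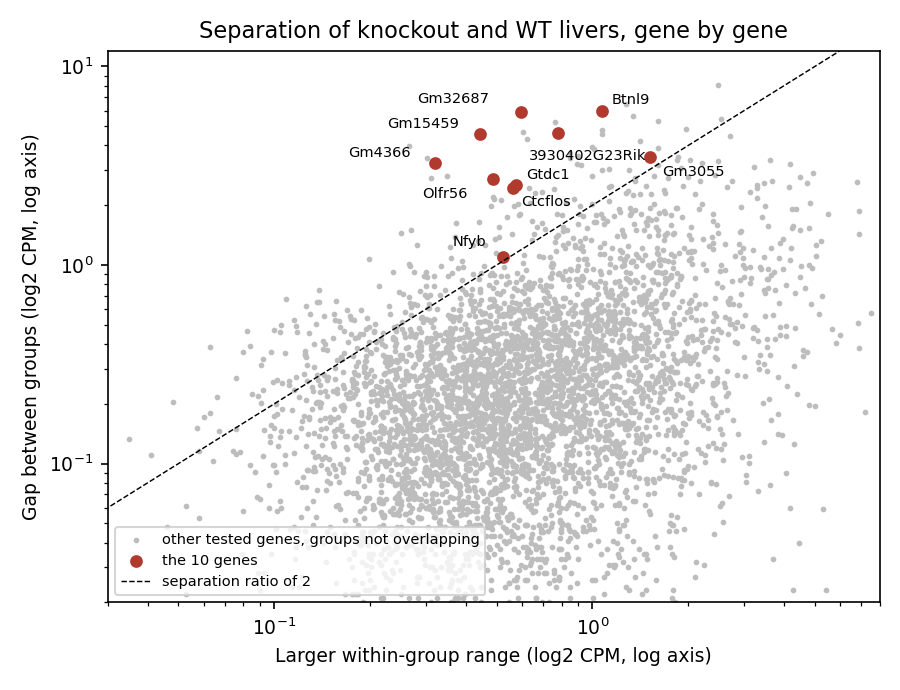
Gap between groups against the larger within-group range (both in log2 CPM, log axes) for every tested gene whose groups did not overlap (grey) and for the 10 genes (red); the dashed line marks a ratio of 2. Gm15459, Gm4366 and Gm32687, with ratios of 9.91 to 10.28, lie farthest above the line of the 10, and Nfyb, with 2.11, lies closest to it.

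The sizes of the differences in the libraries with and without Xist counts are given as a description, since the choice of the genes fixes their direction. Between the 2 libraries with Xist counts the log2 ratio of levels, with 0.1 CPM added, was 2.59 for Gtdc1, 3.03 for Ctcflos, 4.77 for 3930402G23Rik, 4.65 for Gm15459, 3.57 for Gm4366, −6.05 for Btnl9 and −1.63 for Nfyb. In the 4 libraries with Y-linked counts it was 3.05, 2.74, 5.24, 4.96, 3.54, −5.54 and −1.25 in the same order. For Gm32687, Gm3055 and Olfr56, with 0 or nearly 0 counts in knockout, the values were −4.59, −3.7 and −2.05 in the first set and −5.01, −3.72 and −1.86 in the second, where the added 0.1 CPM limits the size.

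By gene type, 6 of the 10 genes are protein coding, 2 are processed pseudogenes, 1 is an intergenic long RNA and 1 is antisense. Of the other genes tested, 425 of 13042 protein-coding genes (3.26%) were called, 15 of 371 processed pseudogenes (4.04%), 13 of 310 intergenic long RNAs (4.19%) and 11 of 226 antisense RNAs (4.87%). Of these 15 pseudogenes, 14 were higher in knockout, Tdg-ps, Gm9855 and Gm8355 among them, and 1 was lower. Across protein-coding genes 259 calls were higher and 166 lower.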

How the data were processed

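The authors deposited expected counts, the estimated reads per gene of RSEM, for 55450 genes in 6 libraries; per the submitters' processing notes, bcl2fastq 2.17, cutadapt 1.18, STAR 2.7.0f and RSEM 1.3.1 were used and mm9 is named as the build. All gene identifiers matched GENCODE M21 for GRCm38, from which positions and types were taken; strand use is not stated. RSEM divides reads that fit several genes, which sets the values of near-identical copies. Counts were rounded, filtered by group (filterByExpr), scaled by TMM and fitted with edgeR 4.0.16 (quasi-likelihood test, R 4.3.3), with Benjamini-Hochberg adjustment over 14539 genes; steps were tested on simulated data. CPM uses unrounded counts. Log2 CPM has a prior count of 2. Copies match at 90% identity or more over at least 200 nt or 50% of the shorter transcript. Groups came from sample titles. The genes and lists were chosen with earlier results of these data known; other genes were named by rule as copies, called neighbours, called list genes and the 10 with the largest separation ratio. Uncalled neighbours and list genes named fall outside that rule and were chosen after their values were seen. A called gene near Stk11 is not reported here.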

Additional observations from a re-analysis of the deposited data

How the results depend on the processing

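The choice of the 10 genes fixes their direction, so only sizes are compared. Sums with all copies were compared as log2 ratios of mean CPM with 0.1 added, with the gene alone on the same measure in brackets. They were 0.08 for Gm15459 (4.86), 0.05 for Gm4366 (3.55), −1.37 for Gm32687 (−4.88) and −0.9 for Gm3055 (−3.71). For Gtdc1 and Btnl9 they were 2.18 (2.91) and −5.46 (−5.74). No match of Gtdc1 or Btnl9 covered more than 50% of its length, and most were to short RNA genes. Btnl9 shared 0% of its 76-nt stretches with other genes. Summed only with copies over more than 50% of the gene's length, a limit chosen after seeing the data, the first 4 values were the same. As a ratio of means with 0.1 CPM added, Olfr56 had −1.92. The log2 fold changes fitted by edgeR for the genes alone were 4.87 for Gm15459, 3.58 for Gm4366 and 2.94 for Gtdc1. They were −10.2 for Gm32687, −5.78 for Gm3055, −7.92 for Btnl9 and −6.87 for Olfr56. Without knockout replicate 2 the fitted value was −9.24 for Gm3055 and −7.35 for Btnl9. The counts of calls depended on the test and on single libraries. Over all genes, near Stk11, among neighbours and in the lists, 490, 6, 3 and 7 of 14539, 232, 89 and 54 were called by edgeR. DESeq2 gave 2290, 36, 21 and 25. Without a filter on low counts, all genes gave 771 of 23717, neighbours 6 of 139 and lists 16 of 103. In the 4 libraries with Y-linked counts the counts were 4847, 75, 38 and 31 of 14546, 227, 86 and 55. With the presence of Xist counts as a term they were 1504, 24, 12 and 13 of 14539, 232, 89 and 54. Leaving out 1 library gave 6 to 4473 over all genes, 0 to 72 near Stk11, 0 to 36 among neighbours and 0 to 31 in the lists, highest without knockout replicate 1. The causes of these shifts were not tested.

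The labels do not pair same-numbered animals, though both replicates 1 had Xist counts. Their deviations from the group means correlated by 0.178, 0.044 and 0.068, and knockout replicates 2 and 3 correlated better with another number (0.12 and 0.203). With the replicate number as a block, 105, 1, 1 and 1 genes were called. Depth limits Olfr56 and Gm3055, where 3 counts are 0.0515 to 0.0641 CPM.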
